A study of Mus musculus with 64 samples.

Results

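Meg3 (maternally expressed gene 3, also called Gtl2) was followed through preimplantation mouse development on 2-colour arrays. The array carried 6 probes whose only gene symbol in the platform annotation was Meg3, out of 22575 probes in all, and Meg3 was 1 of the 3089 genes that had such a single-symbol probe. The 6 probes are called here by their platform numbers, 2972, 11439, 20587, 20957, 21265 and 21599. The probes were taken by annotation, but the gene itself was chosen by its measured values, namely its levels over the stages, the control hours and the inhibitor groups of these arrays. Its levels and differences are therefore described with their errors and carry no test.

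The series held 64 arrays in 2 sets of embryos, each array pairing total RNA of mouse eggs or embryos with a common reference. The stage set had 28 arrays, with a reference labelled Universal Control. It held 4 arrays each of eggs before and after fertilization, of embryos at the 2-cell, 4-cell and 8-cell stage, of morulae, and of blastocysts. The treatment set had 36 arrays, 3 in each of 12 groups, with a reference labelled Universal Reference. Its untreated controls were 1-cell embryos, early ones taken at 21 h and late ones at 32 h, and 2-cell embryos, early ones taken at 43 h and late ones at 54 h. Embryos labelled AM were taken at 32, 43 and 54 h, those labelled AC and DMSO at 32 and 43 h, and those labelled CHX at 43 h only. The labels do not spell these letters out, nor the event from which the hours run, the doses or the mouse strain. In studies of this kind AM usually stands for α-amanitin, which blocks RNA polymerase II, and AC for aphidicolin, which blocks DNA replication. CHX usually stands for cycloheximide, which blocks translation, and DMSO for the solvent dimethyl sulfoxide. Nothing in the labels says that replicate arrays came from separate pools of embryos, so the spreads may be technical in part.

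Meg3 is a long noncoding RNA of the imprinted Dlk1-Dio3 domain on mouse chromosome 12. In imprinted domains only the copy inherited from a given parent is active, and here the maternal chromosome expresses Meg3 and the noncoding genes Rian and Mirg, whereas the paternal chromosome expresses the protein-coding genes Dlk1, Rtl1 and Dio3. Allelic expression of the domain depends on a differentially methylated region upstream of Meg3, and loss of Meg3 expression accompanies silencing of the domain in many lines of mouse induced pluripotent stem cells. The mouse embryo starts its own transcription weakly in the late 1-cell stage and strongly in the 2-cell stage, while RNA stored in the egg is degraded. Total RNA of whole embryos does not separate the parental alleles, and fewer embryos or cells and less RNA per cell cannot be told apart on such arrays.

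RefSeq lists 3 Meg3 transcripts from 2 start sites. The promoter of the upstream start is shown because it is the annotated start nearest to the region that controls imprinting of the domain, and because probes of the gene differed between controls and embryos labelled AM. The stretch covers 250 bases before and 50 bases after that start, at chr12:109540746-109541045 on the plus strand of GRCm38.p6, from RefSeq. It is written 5′ to 3′ with 2 searched motifs in capitals, first the cAMP response element TGACGTCA and then the TATA box TATAAA.
Meg3 upstream promoter: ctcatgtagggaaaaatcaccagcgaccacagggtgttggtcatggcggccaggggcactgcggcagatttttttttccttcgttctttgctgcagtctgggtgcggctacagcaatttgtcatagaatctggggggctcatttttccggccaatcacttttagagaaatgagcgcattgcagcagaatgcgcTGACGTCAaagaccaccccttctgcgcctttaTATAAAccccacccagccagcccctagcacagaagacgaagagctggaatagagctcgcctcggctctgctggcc
The cAMP response element, a site for factors of the CREB family, lay 57 bases before the start. The same letters, which read alike on both strands, occurred in 588 of 32851 mouse promoters of the same length (1.79%). The TATAAA motif lay 25 bases before the start and, counting both strands (TATAAA or TTTATA), occurred in 4473 promoters (13.6%). The 2 motifs do not overlap each other, while the reverse form TTTATA also reads here and overlaps TATAAA. The stretch also held 13 CG dinucleotides, the bases that DNA methylation acts on, against a median of 7 over all promoters, and 37.9% of promoters held at least as many. The corresponding window of the downstream start held neither motif and 1 CG dinucleotide. A match is a description of the letters, and binding was not measured.

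The 6 probes do not all stand for the same transcripts. Probes 2972, 20587, 20957 and 21599 carried the same list of 10 cDNA accessions. Probe 11439 carried 2 accessions, and 1 of them was on that list. Probe 21265 carried a single accession that was on neither list. The probe sequences and their positions along the transcript were not used here, so whether probes 2972 and 11439 read a particular exon or 3′ end was not tested. In the values used here, none of the 6 probes was at the limit of the scale on any array. Those values were as deposited in the stage set and quantile-normalized in the treatment set.

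Levels are given as log2 of the embryo signal over the reference signal. That direction is likely but not settled, because the files do not state which channel is on top. If it were the other way, every sign below would turn, higher would read lower, and each rank from the highest would be the same rank from the lowest. It rests on egg genes: with the deposited values turned this way, the 5 probes for 4 oocyte marker genes all exceeded the reference in unfertilized eggs and all were lower in blastocysts. Levels of different probes were not set against each other, nor levels of the 2 sets, whose references differ. The other lists of cell type markers were hardly measured. No trophectoderm gene of 8, 1 inner cell mass gene of 5 (Nanog) and 1 cumulus or granulosa cell gene of 13 (Cyp11a1) had a single-symbol probe. Since the oocyte genes set the direction, they are no check of the labels, and the labelled stages were not checked by markers.

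Arrays differed in ways the labels do not name. In the stage set, 17 arrays had 322 to 372 features at the upper limit of the scale and 11 arrays had 69 to 312. The latter were all 8-cell embryos and blastocysts, 2 morula arrays and 1 array of unfertilized eggs, so that the step from 4-cell to 8-cell lies wholly across this split. No wide gap parts the 2 ranges, since morula array 4 had 312 such features and blastocyst array 4 had 309. In the treatment set, 4 arrays had just 5 to 156 such features, against 298 or more on the rest. They were the array numbered 3 of the AM groups at 32 h and at 54 h, of the AC group at 32 h, and of the DMSO group at 32 h. Correlations between arrays over all probes ran from 0.50 for the least alike of all pairs to 0.98 for the most alike replicates.

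The first comparison followed Meg3 through the control hours. With probe 11439, the mean of Meg3 lay near the reference level in 1-cell embryos and was higher at 43 h. Its arrays scattered widely at both 21 and 43 h. The highest level of the set was reached in late 2-cell embryos at 54 h. Probe 2972 gave the same order over 32, 43 and 54 h at a smaller size. The other 4 probes stayed within narrow ranges over the same hours.

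With probe 11439, the 3 control arrays read 1.44, -0.92 and -0.50 at 21 h and 0.51, -0.09 and -0.03 at 32 h. They read 1.61, 2.44 and -0.02 at 43 h and 4.35, 3.79 and 4.11 at 54 h. The 54 h arrays were thus all high and close together, whereas at 43 h 2 arrays were raised and 1 was at the reference level. The means were 0.01 ± 1.26, 0.13 ± 0.34, 1.35 ± 1.25 and 4.08 ± 0.28 (SD, n = 3). The difference between 54 and 43 h was 2.74 ± 0.57 log2 (SE from limma's fit over all probes), or 6.68-fold, and the arrays of the 2 groups did not overlap. It ranked 4 from the highest among the 22575 probes in that step (from the lowest if the ratio is turned, as for each rank below). The step from 32 to 43 h was 1.22 ± 0.57 with overlapping arrays, and that from 21 to 32 h was 0.12 ± 0.57.

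With probe 2972, the control arrays read -0.27, -0.49 and -0.32 at 21 h and -0.23, -0.19 and -0.40 at 32 h. They read 0.16, 0.68 and 0.35 at 43 h and 2.33, 1.93 and 2.68 at 54 h. Every array at 43 h was above every 1-cell array, and every array at 54 h was above every array at 43 h. The means were -0.36 ± 0.11, -0.28 ± 0.11, 0.40 ± 0.26 and 2.31 ± 0.38 (SD, n = 3). The step from 43 to 54 h was 1.92 ± 0.36 log2 (SE), or 3.78-fold, at rank 78 of 22575 from the highest. The step from 32 to 43 h was 0.67 ± 0.36.

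**Figure D1:**
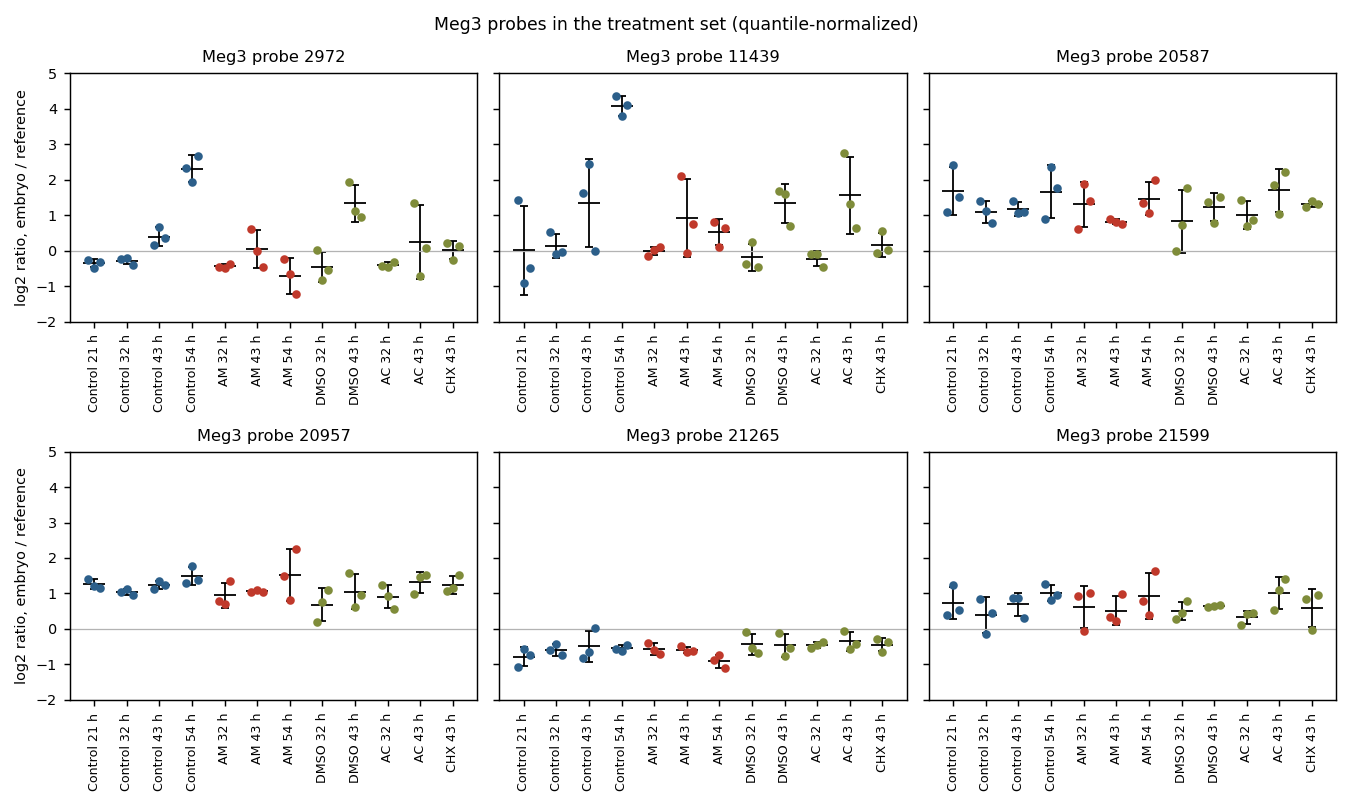
Each panel shows 1 Meg3 probe in the 36 arrays of the treatment set, with the log2 ratio of embryo to reference on the vertical axis and the 12 groups on the horizontal axis; points are single arrays and horizontal bars are group means. In the panels of probes 2972 and 11439 the 54 h control stands above the other groups, with means of 2.31 and 4.08, whereas the means of the other 4 probes span 0.56 to 0.89 over the 12 groups.

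The other 4 probes showed no such step. Between 43 and 54 h probe 20587 differed by 0.49 ± 0.41, probe 20957 by 0.25 ± 0.29, probe 21265 by -0.07 ± 0.21 and probe 21599 by 0.32 ± 0.34 (log2, SE). Probe 20587, for example, read 1.39, 1.06 and 1.08 at 43 h and 0.88, 2.34 and 1.77 at 54 h, so its arrays overlapped. Probes 2972 and 11439 were thus the 2 of 6 whose arrays did not overlap in this step, where 17.6% of all probes lay higher without overlap. The choice of the gene used this contrast, so that share is given for scale alone. The 1 measured marker of cumulus and granulosa cells, Cyp11a1, lay at -0.76 to 0.30 in the 43 h controls, at -2.22 to -1.41 in the 54 h controls and at -3.48 to 0.10 with AM at 54 h. Its means were -1.82 in the 54 h controls and -1.77 with AM at 54 h. The highest AM array at 54 h, at 0.10, lay within the range of the 43 h controls. The part of Cyp11a1 in the result was not tested. The median difference over the 6 probes was 0.40, against 0.04 over all probes. In the step from 32 to 43 h, 2 of 6 probes lay higher without overlap (11.2% of all probes), and in that from 21 to 32 h 1 of 6 lay lower (8.35% of all probes).

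Over all 12 treatment groups, the means of probe 11439 spanned 4.31 and those of probe 2972 3.02 log2 units. The spans of the other 4 were 0.89 for probe 20587, 0.83 for probe 20957, 0.69 for probe 21599 and 0.56 for probe 21265, and the median over all probes was 1.22. By this measure 2 Meg3 probes varied more than the median probe and 4 varied less. Over the 36 arrays probes 2972 and 11439 correlated at r = 0.82, and at r = 0.60 over the 33 arrays left without the 54 h controls. Points within a group share a condition, and every array lends its own quality to both probes, so these values are descriptive. Probes 20587 and 20957, which share their list of accessions with probe 2972, correlated with probe 2972 at 0.14 in both cases, and with each other at 0.59.

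The second comparison set embryos labelled AM beside controls of the same hour. The 2 probes that were high in the 54 h controls were low with AM at 54 h, and no probe differed by as much at 32 or 43 h. With probe 11439, the AM arrays at 54 h read 0.80, 0.11 and 0.65 (0.52 ± 0.36, SD, n = 3), far below the lowest control array at 3.79. The difference of -3.57 ± 0.57 log2 (SE) was an 11.8-fold lower level, at rank 48 of 22575 from the lowest. With probe 2972, they read -0.23, -0.66 and -1.23 (-0.71 ± 0.50), all below zero where the 3 control arrays were between 1.93 and 2.68. The difference of -3.02 ± 0.36 was an 8.13-fold lower level, at rank 94 from the lowest. The AM array numbered 3 at 54 h was among the 4 with few features at the upper limit, and without these 4 the differences were -3.63 for probe 11439 and -2.76 for probe 2972. This comparison and the step from 43 to 54 h share the 54 h control arrays, so the 2 results are not independent.

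Values that do not use those arrays bear on the level with AM itself. Against AM embryos at 43 h, AM embryos at 54 h differed by -0.76 ± 0.36 with probe 2972 and by -0.41 ± 0.57 with probe 11439. Against 43 h controls they differed by -1.10 ± 0.36 and -0.83 ± 0.57, the latter from -1.51 without the 43 h control array 3 to -0.28 without the control array 2. With probe 2972 the AM arrays at 54 h all lay below the 43 h controls (1 of 6 probes, beside 8.36% of all probes), and with probe 11439 the groups overlapped. With AM neither probe was higher at 54 h than at 43 h, although for probe 11439 the difference was within its SE and ranged from -0.90 to 0.18 with 1 array left out.

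At the earlier hours the 2 groups lay close together. At 43 h the AM arrays read 2.10, -0.06 and 0.74 with probe 11439 and 0.61, -0.01 and -0.45 with probe 2972. The first array was the highest in both cases, and the groups overlapped with the controls. The differences from control were -0.42 ± 0.57 and -0.35 ± 0.36 (SE). With 1 array left out they ran from -1.10 to 0.13 and from -0.63 to -0.10, so probe 11439 gave no stable direction at 43 h. At 32 h they were -0.14 ± 0.57 and -0.16 ± 0.36.

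The remaining probes did not share the difference at 54 h. It was -0.20 ± 0.41 with probe 20587, 0.03 ± 0.29 with probe 20957 and -0.08 ± 0.34 with probe 21599. Probe 21265 had AM arrays at -0.88, -0.74 and -1.11 and controls at -0.56, -0.63 and -0.46, which did not overlap, but the difference was only -0.36 ± 0.21. In all, 3 of 6 probes lay lower without overlap, beside 13.1% of all probes. At 43 h probes 20587 and 20957 lay lower without overlap (2 of 6, beside 4.43% of all probes), and at 32 h no probe separated the groups (0 of 6, beside 5.78% of all probes higher and 6.31% lower).

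**Figure D2:**
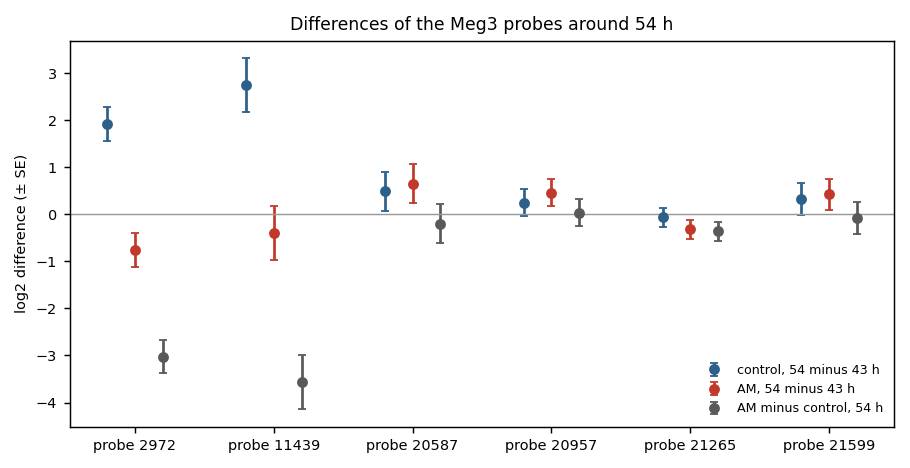
Points are the differences of group means on the log2 scale for each of the 6 Meg3 probes, and bars are SE from limma's fit over all probes. The comparisons drawn are controls at 54 minus 43 h, AM at 54 minus 43 h, and AM minus control at 54 h. The step from 43 to 54 h in controls (1.92 for probe 2972 and 2.74 for probe 11439) and the AM comparison at 54 h (-3.02 and -3.57) stand away from zero for these 2 probes.

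The third comparison covered the other agents. AC embryos, which would carry unreplicated DNA if the letters stand for aphidicolin, were set against DMSO embryos. At 32 h the AC and DMSO groups differed by 0.05 ± 0.36 with probe 2972 and by -0.03 ± 0.57 with probe 11439. At 43 h the AC arrays scattered widely, at 1.36, -0.71 and 0.07 with probe 2972 and at 2.76, 1.31 and 0.63 with probe 11439. Over all probes these AC arrays correlated least with their own group in the treatment set, at 0.76, 0.80 and 0.85 on average. The DMSO arrays read 1.94, 1.12 and 0.94 with probe 2972 and 1.69, 1.60 and 0.70 with probe 11439. The differences, -1.09 ± 0.36 and 0.23 ± 0.57, had opposite signs in the 2 probes, and the arrays overlapped in both. No Meg3 probe separated AC from DMSO at either hour (0 of 6). Of all probes, 2.80% lay higher and 3.77% lower without overlap at 32 h, and 4.81% higher and 4.40% lower at 43 h.

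DMSO embryos at 32 h differed from controls by -0.17 ± 0.36 with probe 2972 and by -0.32 ± 0.57 with probe 11439. DMSO embryos at 43 h were above controls of the same hour with probe 2972 only. The difference was 0.93 ± 0.36, at rank 347 from the highest, and the arrays did not overlap (1 of 6 probes, beside 5.80% of all probes). With probe 11439 the same difference was -0.02 ± 0.57. CHX embryos at 43 h read -0.06, 0.55 and 0.01 with probe 11439, below the control mean of 1.35 by -1.18 ± 0.57, but the control array numbered 3, at -0.02, lay within their range. With probe 2972 they read 0.20, -0.27 and 0.14, a difference of -0.37 ± 0.36 with overlapping arrays. The comparisons at 43 h share their control arrays.

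The order of the 12 groups summarises the treatment set. With probe 11439, the 54 h control was followed by AC at 43 h at 1.56 ± 1.09, a gap of 2.52 that exceeded the pooled SD of 0.80 and left no overlap. Below it, neighbouring groups differed by no more than 0.41, and just AM at 54 h over CHX at 43 h passed its pooled SD of 0.35, with overlapping arrays. With probe 2972, the 54 h control was followed by DMSO at 43 h at 1.33 ± 0.53, a gap of 0.99 beyond the pooled SD of 0.46 although 1 DMSO array (1.94) reached the lowest control array (1.93). The 43 h control came next at 0.40, below DMSO by 0.93 with no overlap (pooled SD 0.42), and AM at 54 h was last at -0.71. The lower part of the order held no gap beyond the spread apart from CHX at 43 h over the 32 h control, 0.30 against 0.20.

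The fourth comparison took the 7 stages. Meg3 varied little in that set. The span of the 7 stage means was 1.00 for probe 11439, 0.98 for probe 20587, 0.90 for probe 21265, 0.60 for probe 20957, 0.49 for probe 21599 and 0.46 for probe 2972, and all 6 were below the median over all probes, 1.35. The 2-cell embryos of the stage set have no stated hour, so it is not known which of the 43 and 54 h groups they resemble in age.

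With probe 11439, 2-cell embryos were highest at 1.26, 0.52, 1.12 and 0.90 (0.95 ± 0.32, SD, n = 4). Fertilized eggs read 0.25, 1.00, 0.61 and 0.10 (0.49 ± 0.40), which overlapped with them, and the step was 0.46 ± 0.35 (SE). Morulae held the widest scatter, at 2.03, 0.60, -0.21 and -0.21 (0.55 ± 1.05). The 2 morula arrays on the side of the split with more features at the limit were high, and the 2 on the other side were low. The 8-cell embryos were lowest at -0.05 ± 0.07. No neighbours in the order of the 7 stages differed by more than their pooled SD.

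With probe 2972, the means ran from 0.12 ± 0.73 in fertilized eggs to 0.58 ± 0.13 in 8-cell embryos. The 2-cell embryos, at -0.21, 0.26, 0.20 and 0.41 (0.17 ± 0.27), differed from fertilized eggs by 0.05 ± 0.25 (SE). The 8-cell arrays, at 0.46, 0.70, 0.48 and 0.69, all lay above the 4-cell arrays, at 0.40, 0.08, 0.21 and -0.04. That difference of 0.42 ± 0.25 became 0.21 with the split of the arrays as a block. With probe 11439 the same step was -0.45 ± 0.35 and changed sign to 0.41 with the block, so no direction can be given for it. The size of the block effect came from morulae and unfertilized eggs alone, the only groups with arrays on both sides.

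**Figure D3:**
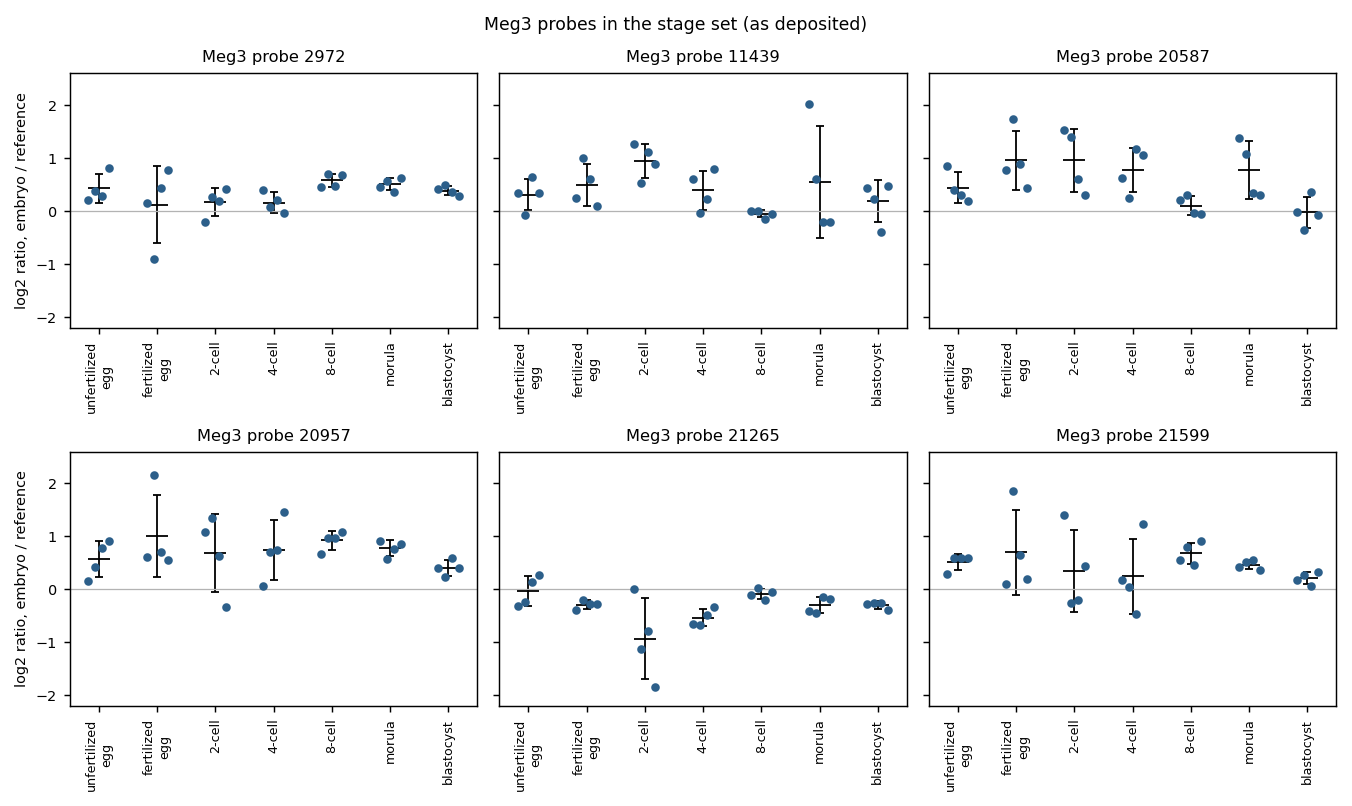
Each panel shows 1 Meg3 probe in the 28 arrays of the stage set. The log2 ratio of embryo to reference is on the vertical axis and the 7 stages are on the horizontal axis. Points are single arrays and horizontal bars are group means, and the 2 sides of the array split are not marked. Stage means of a probe span 0.46 to 1.00, and the scatter among fertilized eggs, 2-cell embryos and 4-cell embryos is as wide as the differences between stages in most panels.

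The other probes varied as little. Probe 20587 was highest in 2-cell embryos and fertilized eggs, at 0.96 in both, and lowest in blastocysts at -0.02 ± 0.29. Probes 20957 and 21599 were highest in fertilized eggs, at 1.01 ± 0.77 and 0.70 ± 0.80, where in both cases the second array was far above the rest (2.15 and 1.86). That array was also the highest of its group with probes 11439 (1.00), 20587 (1.74) and 21265 (-0.20), and the lowest with probe 2972 (-0.91). Over all probes it correlated least with the other fertilized egg arrays, at 0.85 on average. Probe 21265 was lowest in 2-cell embryos at -0.93 ± 0.76, with arrays from -1.83 to 0.00. No probe separated the arrays at the first 3 steps (0 of 6 each). Of all probes, 3.46% lay higher and 2.94% lower without overlap from unfertilized to fertilized eggs, 9.97% and 10.5% from there to 2-cell embryos, and 10.7% and 5.37% from there to 4-cell embryos. In the step from 4-cell to 8-cell embryos 2 of 6 probes lay higher without overlap (24.9% of all probes). In that from 8-cell to morula 1 did (11.5%), and in that from morula to blastocyst 1 lay lower (5.91%). The pair that moved together over the treatment arrays did not do so here: probes 2972 and 11439 correlated at -0.38 over the 28 stage arrays.

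The other genes of the domain could not be followed. None of the 5 listed genes Dlk1, Rtl1, Rian, Mirg and Dio3 had a single-symbol probe. Of 128 genes annotated within 1 Mb of Meg3, 1 had a single-symbol probe, Slc25a47, which encodes a mitochondrial carrier of the liver. Its levels were 0.89 ± 0.34 in 43 h controls, 1.41 ± 0.09 in 54 h controls and 1.00 ± 0.45 with AM at 54 h (SD, n = 3), so its differences of 0.52 and -0.41 were smaller than those of probes 2972 and 11439.

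Genes whose group means were most like those of Meg3 were taken from single-symbol probes with a span of at least 1 log2 unit. The Meg3 probe of widest span over the stages, 11439, served as the reference pattern. Over the 12 treatment means, and among 2348 genes, the closest were Taf7l (r = 0.98), a relative of the general transcription factor subunit TAF7, and Tiam2 (0.97), an activator of Rac GTPases. Cep57 (0.96), a centrosomal protein gene, Elovl6 (0.95), a fatty acid elongase gene, Tfrc (0.95), the transferrin receptor gene, and Fmr1 (0.95), which encodes an RNA-binding protein, came next. Without the 54 h control the 6 values lay between 0.83 for Tfrc and 0.96 for Taf7l. The 6 genes were picked by likeness over these same means, so a shared pattern follows from the choice. All 6 had higher levels in 54 h controls than in 43 h controls or with AM at 54 h. Taf7l, for instance, stood at 2.04 ± 0.95, 4.20 ± 0.20 and 0.60 ± 0.58, and Tfrc at -0.56 ± 0.48, 1.54 ± 0.37 and -0.91 ± 0.85 (43 h control, 54 h control and AM at 54 h, SD, n = 3). A correlation over 12 means that share arrays and a reference describes likeness and nothing more.

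**Figure D4:**
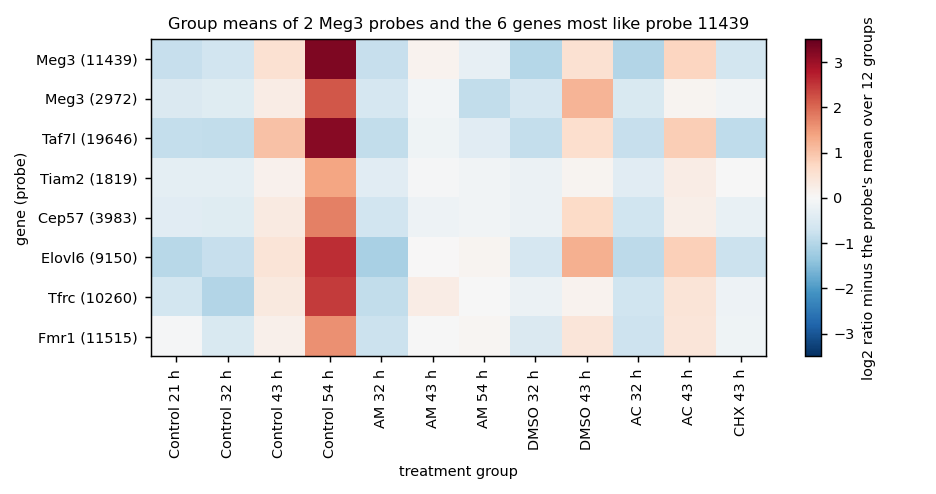
Colours give the group mean minus the mean over the 12 treatment groups (log2) for Meg3 probes 11439 and 2972 and for the 6 genes whose pattern was most like that of probe 11439; red is above and blue is below that mean. The 54 h control is the reddest column for every row, and AM at 54 h lies near or below the row mean.

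Over the 7 stage means, and among 2511 genes, the closest to probe 11439 were other genes. They were Fzd3 (r = 0.99), a Wnt receptor gene, Kpna3 (0.98), a nuclear import receptor gene, and Tbc1d31 (0.97). Prkci (0.96), an atypical protein kinase C gene, Ikzf1 (0.96), a zinc finger transcription factor gene, and Cacul1 (0.96) completed the list. No gene was on both lists of 6. Since probe 11439 itself spanned only 1.00 over the stages, with stage means mostly within the spread, this order is a weak description.

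The wider set of imprinted genes was measured to place Meg3. Of 65 listed genes, 16 had single-symbol probes, 21 probes in all, and these carry tests by limma with Benjamini-Hochberg adjustment over all 22575 probes. The list was chosen with earlier results of these data known, and its named genes were picked by smallest adjusted p. Their p-values are therefore not those of a choice made in advance. Over the 7 stages, 13 of 21 probes (11 genes) differed by the F test, beside 64.3% of all probes, and 9 with the split of the arrays as a block, beside 40.9%. Xist, the noncoding RNA of X inactivation, stood at -0.01 ± 0.28 in 4-cell embryos, 1.67 ± 0.13 in 8-cell embryos, 1.78 ± 0.25 in morulae and 1.49 ± 0.11 in blastocysts (SD, n = 4). Its adjusted p over the stages was 6.3e-08 in limma's F test, or 5.4e-05 once the split entered as a block. Kcnq1ot1 probe 21979 (an antisense noncoding RNA of the Kcnq1 domain) and the genes H13 (a signal peptide peptidase), Gatm (creatine synthesis) and Ppp1r9a (neurabin) followed, with adjusted p from 3.1e-07 to 0.00045 by the same test. Ppp1r9a lost its call with the block (adjusted p = 0.094 by limma). For Kcnq1ot1 probe 21979 the block raised the adjusted p from 3.1e-07 to 0.019 (limma's F test). Its arrays scattered widely in the groups that lie on both sides of the split. They ran from -0.004 to 2.34 in morulae and from -0.41 to 1.83 in unfertilized eggs.

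From fertilized eggs to 2-cell embryos, 4 list probes were higher and 2 lower, of 21, beside 14.5% and 12.9% of all probes by limma. The list's median difference was 0.24, against 0.09 over all probes. H13 fell by 1.23 log2 (adjusted p = 0.00037, limma). Ins2 (insulin) rose by 1.23 (adjusted p = 0.0089, limma), Zim1 (a zinc finger protein gene) by 0.90 (0.029) and Airn (an antisense noncoding RNA at Igf2r) by 1.09 (0.040). Each of these 3 calls was lost when certain single arrays were left out. Without the 2-cell array numbered 2, the adjusted p by limma was 0.058 for Ins2, 0.16 for Zim1 and 0.16 for Airn. Zim1 also lost its call without the fertilized egg array 2 (0.13) or 3 (0.054) or the 2-cell array 1 (0.066) or 3 (0.057). Airn did so without the fertilized egg array 3 (0.20) or 4 (0.052) or the 2-cell array 4 (0.069). Kcnq1ot1 gave no single answer, since probe 2311 rose by 1.52 (adjusted p = 0.0040, limma), probe 21401 fell by 0.92 (0.0065) and probe 21979 did not pass the test (0.22, adjusted p = 0.76). Like Meg3, this noncoding RNA was read differently by its probes.

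Over the 4 control hours, 6 of 21 list probes differed by the F test, beside 17.6% of all probes. Jade1, which encodes a subunit of a histone acetyltransferase complex, had means of -2.52, -2.24, -1.57 and -0.55 from 21 to 54 h (adjusted p = 0.0027, limma's F test). Kcnq1ot1 probe 21979 had means of -0.63, -0.89, -0.44 and 0.28 (0.0096), and thus was highest at 54 h as Meg3 was with its 2 responding probes. The 6 called probes belonged to 6 genes, so no other Kcnq1ot1 probe passed this test. H13 (-1.92, -1.36, -2.30 and -3.55, adjusted p = 0.00034 by limma) and Gnas, the stimulatory G protein gene (-4.17, -3.24, -3.81 and -5.36, 0.015), were lowest at 54 h. Kcnq1ot1 lost its call without the 54 h control array 3 (adjusted p = 0.063 by limma). Gnas lost its call without the 54 h control array 1 or 2 (0.11 in both cases), with the values as deposited (0.20) and with arrays centred on their medians (0.20). Gatm was highest at 21 h (-1.31, then -2.69, -2.74 and -2.47, adjusted p = 5.8e-05 by limma).

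With AM at 43 h no list probe passed limma's test, none had an unadjusted p under 0.05, and no probe of the whole array passed either (0% of 22575 in both directions). The list's median difference was 0.11, against 0.03 over all probes. With AM at 54 h, 1 of 21 list probes passed, beside 2.12% of all probes higher and 4.34% lower, and 4 had an unadjusted p under 0.05. It was Gnas, higher by 1.83 log2 (-3.53 ± 1.02 with AM, -5.36 ± 0.89 in controls, SD, n = 3, adjusted p = 0.022 by limma), the opposite direction to Meg3 probes 2972 and 11439. That call was lost with the values as deposited (adjusted p = 0.31, limma), with arrays centred on their medians (0.30) and without the 4 arrays with few features at the upper limit (0.086). It was also lost without the 54 h control array 1 or 2 (0.12 in both cases), and without the AM array 2 (0.16) or 3 (0.053). The list's median difference was 0.15, against 0.02 over all probes. No list gene was called lower with AM at 54 h.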

How the data were processed

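The arrays measured total RNA of eggs and embryos against a common reference in 2 channels. The deposited values are log ratios, 1 per probe and array. They were read as log10, with limits of 100-fold, because they stop at 2 in either direction, as such ratios do, and 1.47% of values lay at a limit. The files do not state which channel is on top, and the steps from scan to ratio are not stated in the labels or files. The authors' deposited log10 values were multiplied by -3.3219 to give log2 of embryo over reference. The stage set was used as deposited, since its array medians spanned 0.24. The treatment set, with a span of 0.53 (limit 0.5), was quantile-normalized. Differences, SE and tests came from limma 3.58.1 in R 4.3.3 (lmFit, eBayes), with 1 mean per group, fitted over all 22575 probes of a set, and the threshold was a Benjamini-Hochberg adjusted p of 0.05. The fit was tested on simulated data first. Figures and summaries used Python 3.11.15 with pandas 2.3.3, numpy 2.4.6 and matplotlib 3.10.9.

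Gene names came from the platform annotation, where 4262 probes had 1 symbol, 6822 several and 11491 none. Of the first, 4247 matched RefSeq by gene number and 0 changed symbol. The members and gene lists were chosen with earlier results of these data known. Named were all Meg3 probes, measured genes of the Dlk1-Dio3 list, up to 5 called genes for each result of the imprinted list by smallest adjusted p, and the 6 genes most like Meg3 in each set. Regulators of imprinting were listed for description. Markers of oocytes set the direction of the ratio, and those of trophectoderm, inner cell mass and cumulus cells were too few to check the labels. No spot-level background or detection calls were used, so the number of arrays limits the precision.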

Additional observations from a re-analysis of the deposited data

Results flagged for a closer look

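Among the 42 groups of 4 stage arrays (6 probes in 7 stages), 3 had an array whose gap to its nearest neighbour, divided by the range of the group, exceeded Dixon's critical value, and chance gives about 1 in 20 groups. Probe 20957 read 2.15 in the second array of fertilized eggs, above the other 3 at 0.56 to 0.70. Probe 21265 read -0.40 in the fourth blastocyst array, below the other 3 at -0.27 to -0.25. Probe 21599 read 0.29 in the first array of unfertilized eggs, below the other 3 at 0.59 to 0.60.

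A seventh probe, 2416, is annotated to both Rian and Meg3 and entered none of the comparisons above. It was higher in all AC arrays at 43 h (1.27, 1.69 and 1.56) than in all DMSO arrays (-0.07, 0.86 and 1.00), a difference of 0.91 log2. Of all probes, 4.81% lay higher without overlap in that comparison. The means of probe 2416 in controls were 0.23, -0.37, 0.64 and 0.88 from 21 to 54 h, and 0.01 with AM at 54 h. Its AM arrays at 54 h (-0.03 to 0.10) all lay below the 54 h controls (0.70 to 1.12), as did 13.1% of all probes.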

How the results depend on the processing

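Of 540 alternatives to the Meg3 differences, 51 changed the sign, 1 of them for a difference larger than its pooled SD. The rest were differences within their pooled SD, such as probe 2972 from fertilized egg to 2-cell (-0.30 to 0.27 with 1 array left out) and probe 11439 from 21 to 32 h (-0.34 to 0.84), from 4-cell to morula (-0.33 to 0.41) and from morula to blastocyst (-0.62 to 0.12). With the split of the stage arrays as a block, the step from 4-cell to 8-cell was 0.21 for probe 2972 (0.42 without) and reversed to 0.41 for probe 11439 (-0.45 without), and that from morula to blastocyst was -0.22 for probe 2972. Within the 11 arrays of the second side, morulae minus 8-cell embryos was -0.16 with probe 11439 (0.60 over all arrays). With the treatment values as deposited, probe 2972 gave 0.23 from 21 to 32 h, 0.43 from 32 to 43 h and 2.29 from 43 to 54 h, and probe 20957 gave 0.53 from 43 to 54 h. Leaving out 1 array at a time, the step from 43 to 54 h ranged from 1.74 to 2.11 (probe 2972) and 2.06 to 3.29 (probe 11439). The AM difference at 54 h ranged from -3.26 to -2.76 and from -3.72 to -3.36. With probe 11439 the step from 32 to 43 h ranged from 0.67 to 1.90 and the CHX difference from -1.86 to -0.63. The cause of these moves was not tested.

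For the imprinted list, the count at the 2-cell step was 1 in a fit of these 2 groups alone (fewer arrays) and 3 to 7 with 1 array left out, where 3 was without the second 2-cell array. The count with AM at 54 h was 0 with the values as deposited, with arrays centred on their medians, without the 4 arrays with few features at the upper limit and in a fit of the 2 groups alone, and 0 to 3 with 1 array left out, where 3 was without the AM array 1. Replicate numbers gave no clear pairing of the arrays by correlations of their deviations from group means. Over arrays of equal number the average was -0.02 in the stage set (-0.44 to 0.59), against 0.005 over other pairs. In the treatment set it was 0.07 (-0.49 to 0.57), against -0.03 over other pairs. The 4 treatment arrays with few features at the upper limit were all numbered 3. Whether arrays of equal number were handled together was not tested. With the replicate block the counts were 14 over the stages, 7 at the 2-cell step, 6 over the hours, 0 with AM at 43 h and 1 with AM at 54 h. Zim1 at the 2-cell step lost its call with quantile-normalized stage arrays (adjusted p = 0.11, limma), and Gnas over the hours with the values as deposited or centred (0.20 in both cases). The signal of single probes over background was not used here.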

Other observations

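Genes that act on imprints were also followed, from a list likewise chosen with earlier results of these data known. Of 17 listed regulators, 11 had single-symbol probes, 21 in all. From fertilized eggs to 2-cell embryos 5 probes were lower and 1 higher by limma, beside 12.9% and 14.5% of all probes. Tet3, a dioxygenase that oxidises 5-methylcytosine, fell by 3.38 log2, from 3.12 ± 0.09 to -0.26 ± 0.26 (SD, n = 4). Ezh2, the methyltransferase of Polycomb repressive complex 2, fell by 2.66 with probe 19067, and its other probe, at 0.18 ± 0.26 (SE), did not pass the test. Dnmt1, the maintenance DNA methyltransferase, fell by 1.53 and 1.54 with 2 probes, and the remaining probe did not pass. Dnmt3b, a de novo methyltransferase, fell by 1.88 with 1 of 3 probes. Jarid2, a Polycomb cofactor, rose by 0.98 (adjusted p = 0.0087, limma), a call lost without the 2-cell array 2 (0.052).

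With AM at 54 h, 2 of the 21 regulator probes were higher and 0 lower by limma, beside 2.12% and 4.34% of all probes. Zfp445, a zinc finger protein that maintains imprints, was higher by 1.24 with probe 21112, at -1.24 ± 0.39 with AM and -2.49 ± 0.31 in controls (SD, n = 3, adjusted p = 0.0023 by limma), and its other probe, at 0.43 ± 0.31 (SE), did not pass. Dnmt3a was higher by 1.40 with 1 of 2 probes (adjusted p = 0.021, limma). The Zfp445 call was lost with the values as deposited (adjusted p = 0.12, limma) and with arrays centred on their medians (0.090). The Dnmt3a call was lost without the 54 h control array 3 (0.23) and without the AM array 1 (0.072) or 2 (0.052).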
